A study of Homo sapiens with 6 samples.

Results

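The data described here are the genes expressed in control MDA-MB231 cells, that is, genes that reached at least 1 TPM in each of the 3 control libraries of the series. TPM is a length-corrected measure of how much of the RNA of a library comes from a gene, scaled to the same total in every library, so levels of different genes can be set side by side, while the sequencing depth is lost. Of the 57445 genes in the deposited table, 15155 met this rule, which is 26.4% of the table. Another 1003 genes reached 1 TPM in 2 of the 3 libraries, 1296 in 1, 18933 stayed below 1 TPM throughout with at least 1 value above 0, and 21058 were listed at 0 in all 3 libraries.

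MDA-MB231 is an established human breast cancer cell line of the triple-negative type. The study sequenced cells with a non-silencing control shRNA (shCTL, 3 libraries) and cells with an shRNA against Ror1 (3 libraries), and the present account uses the shCTL libraries alone. The shCTL cells carried a lentiviral pGIPZ vector, had been stably selected with 2 µg/ml puromycin and grew in RPMI-1640 with heat-inactivated fetal calf serum. The sample labels call the control an empty vector and the RNA polyadenylated, whereas the methods name a non-silencing shRNA and a strand-specific kit started from total RNA. The 3 columns share a header that also holds the word DMSO, a solvent that neither the labels nor the methods mention for these cells, and untransduced cells were not analysed here. Because that header holds no replicate number, the libraries are called the first, the second and the third by their order in the table, and it is not stated whether they came from separate cultures, so the spread between them may be technical.

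Triple-negative tumors are defined by the absence of the estrogen receptor, the progesterone receptor and amplified HER2. Luminal breast cells are known for the keratins KRT8, KRT18 and KRT19 and the transcription factors GATA3 and FOXA1, basal cells for KRT5, KRT14 and p63, and cells that have passed through an epithelial-mesenchymal transition for vimentin, ZEB factors and a loss of E-cadherin. Much of the mRNA mass of a growing cell is taken by transcripts of the translation machinery and of the mitochondrial genome, and many mRNAs of the translation machinery start with a run of pyrimidines, the 5′ terminal oligopyrimidine (TOP) tract, through which their translation is controlled.

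Listed start regions of the most abundant nuclear genes are shown because most of those displayed begin with such a tract. Each line gives 40 bases before and 20 bases from the transcription start on (RefSeq, GRCh38.p14, strand of the gene), and the capitals mark the unbroken run of C and T that begins with a C at the start. Where a gene had several listed starts, a start with such a run was shown. GAPDH and PPIA, which have no such run at any listed start, are given at a single listed start for contrast. Which start most of the mRNA of a gene used was not measured, so a displayed start need not be the main one.
EEF1A1 (chr6:73521013-73521072, minus strand): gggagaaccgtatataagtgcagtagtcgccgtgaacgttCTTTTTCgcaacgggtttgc
RPLP0 (chr12:120201092-120201151, minus strand): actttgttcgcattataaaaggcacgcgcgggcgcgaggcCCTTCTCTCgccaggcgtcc
RPS18 (chr6:33272035-33272094, plus strand): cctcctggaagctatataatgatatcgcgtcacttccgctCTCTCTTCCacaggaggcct
NPM1 (chr5:171387809-171387868, plus strand): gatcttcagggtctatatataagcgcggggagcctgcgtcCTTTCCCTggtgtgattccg
RPS24 (chr10:78033823-78033882, plus strand): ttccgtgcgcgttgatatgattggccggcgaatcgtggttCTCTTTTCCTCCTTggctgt
RPS3 (chr11:75399478-75399537, plus strand): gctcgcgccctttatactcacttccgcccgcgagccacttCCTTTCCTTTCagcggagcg
GAPDH (chr12:6535224-6535283, plus strand): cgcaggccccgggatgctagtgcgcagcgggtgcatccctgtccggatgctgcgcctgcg
PPIA (chr7:44796641-44796700, plus strand): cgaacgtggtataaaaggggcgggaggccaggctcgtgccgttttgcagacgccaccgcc

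The capital runs measure 7 bases in EEF1A1, 9 in RPLP0 and RPS18, 8 in NPM1, 14 in RPS24 and 11 in RPS3. A start made of a C and 4 further letters that are each C or T was searched on the strand of the gene in the RefSeq windows, and a gene counted when any of its listed starts matched. It was present in 23 of the 40 genes with a window among the 50 most abundant nuclear protein-coding genes (57.5%), and in 54.2% of the 83 with a window among the 100 most abundant. Of the 9635 described nuclear protein-coding genes with a window it was present in 7.61%, and of all 27305 genes in the table of windows in 5.14%. When the first listed start of each gene alone was used, the shares were 52.5%, 48.2%, 5.53% and 4.04%, in the same order. The share was thus highest at the top of the abundance range, and these counts are descriptions without a test. With any listed start, it was 6.14% below 10 TPM, 6.79% from 10 to 100 TPM and 14.0% at 100 TPM or more. Of the 67 described cytosolic ribosomal protein genes with a window, 48 had the run (71.6%). Ribosomal protein genes made up 22 of the 50 most abundant genes of all kinds, so abundance and gene family were not separated. The word GGGCGG, a core of the site of Sp1-type factors, lay on either strand of the windows of 78.1% of the described genes and of 48.3% of all genes with a window. Windows covered 81.6% of the described nuclear protein-coding genes but 70.9% of those below the limit, so a comparison of the groups is void. In the windows at hand, those below the limit held the C-start run in 4.22% and GGGCGG in 43.3%. The share over all genes with a window has the same limit, since it leaves out the genes without one.

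The libraries resembled each other closely, but the second and the third each stood apart in a set of transcripts. Across the described genes, Pearson's r of log2(TPM + 1) was 0.993 between the first and the second library, 0.992 between the first and the third and 0.989 between the second and the third. These values run across genes, which are not independent replicates. At most 0.462% of the described genes had identical values in a pair of libraries, so none was a copy of another. Between 90.96% and 95.5% of the described genes lay within 1.5-fold of each other in a pair. The median SD of log2(TPM + 1) over the described genes was 0.117 (n = 3 libraries for each gene). With 2 libraries it was 0.110 without the first, 0.104 without the second and 0.0739 without the third. An SD of 2 libraries is not directly comparable with an SD of 3.

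In the second library, several but not all RNAs that lack a poly(A) tail were higher. The 7SK RNA (RN7SK), which holds the elongation factor P-TEFb in an inactive complex, measured 7.19, 156 and 8.85 TPM in the first, the second and the third library, an order kept for every set of 3 values in this text. The spliceosomal U2 locus RNU2-2P measured 2.69, 81.7 and 7.11 TPM, and the U3 small nucleolar RNA (SNORD3A) 11.9, 73.9 and 10.9 TPM. All 3 were far higher in the second library than in both others, and without it their means were 8.02 TPM for RN7SK, 4.9 TPM for RNU2-2P and 11.4 TPM for SNORD3A. The U1 copies, among them RNU1-1, RNU1-3 and RNU1-4, each measured 1.66, 40.4 and 1.68 TPM, with the same values in 7 rows, so these near-identical copies cannot be told apart, and a mean of 1.67 TPM without the second library. The 5S rRNA copies, among them RNA5S1, each measured 0.44, 7.06 and 0.90 TPM. AC079949.1, annotated as a miRNA precursor, had the largest spread of the described genes with a mean of at least 10 TPM, with 88.5, 1993 and 65.98 TPM, and a mean of 77.2 TPM without the second library. The signal recognition particle RNA RN7SL2 measured 565, 1017 and 246 TPM and the mitochondrial 12S rRNA MT-RNR1 554, 1089 and 712 TPM, again highest in the second library, whereas the 16S rRNA MT-RNR2 (1522, 2100.4 and 2110.5 TPM) and the nuclear lncRNAs MALAT1 (19.5, 21.7 and 23.8 TPM) and NEAT1 (56.7, 64.3 and 101 TPM) were not. Of the 20 described genes with the largest spread among those with a mean of at least 10 TPM, all 20 were highest in the second library and 0 were protein-coding. The U6 copy RNU6-36P, which the limit of 1 TPM leaves out, had a larger spread in the other direction, with 94.8, 0 and 194 TPM. Another U6 copy, RNU6-1, measured 15.7, 22.75 and 0 TPM, and the division of reads between such copies is uncertain. Histone mRNAs, which also end without a poly(A) tail, went both ways. Among the leading ones, H2BC12 and H1-2 were lowest in the second library (values below). H2AC6 (9.68, 12.8 and 10.3 TPM), H2BC5 (8.69, 13.7 and 10.1 TPM), H2BC18 (3.43, 7.52 and 2.76 TPM) and H4C8 (3.6, 6.76 and 2.46 TPM) were highest in it. So were H2BC4 (3.44, 4.78 and 3.62 TPM) and H2BC11 (2.04, 4.51 and 3.54 TPM). The part of RNA selection in this was not tested.

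In the third library, 536 described genes were at least 1.5-fold above both other libraries, against 78 for the first and 122 for the second. Of the 536 genes, 370 were protein-coding (69.0%, beside 77.95% of all described genes). The median GC content of the longest annotated transcript was 57.8% for these protein-coding genes and 47.6% for all described protein-coding genes, with median canonical transcript lengths of 3174 and 3336 bases. A high GC content was not particular to this set. Protein-coding genes at least 1.5-fold below both other libraries had 54.4% in the first, 56.6% in the second and 48.7% in the third. Those at least 1.5-fold above had 47.8% in the first and 52.1% in the second. LAMA5, a laminin chain, measured 143, 137 and 315 TPM, and ITGB4, the partner of integrin alpha 6 in hemidesmosomes, 20.8, 27.1 and 69.7 TPM. Fibronectin (FN1) measured 15.6, 20.8 and 43.9 TPM and plakoglobin (JUP), a desmosome and adherens junction component, 5.85, 8.55 and 18.03 TPM. In all 4 genes the third library was more than 1.5-fold above the others, and the part of GC content or library preparation in this was not tested.

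**Figure D1:**
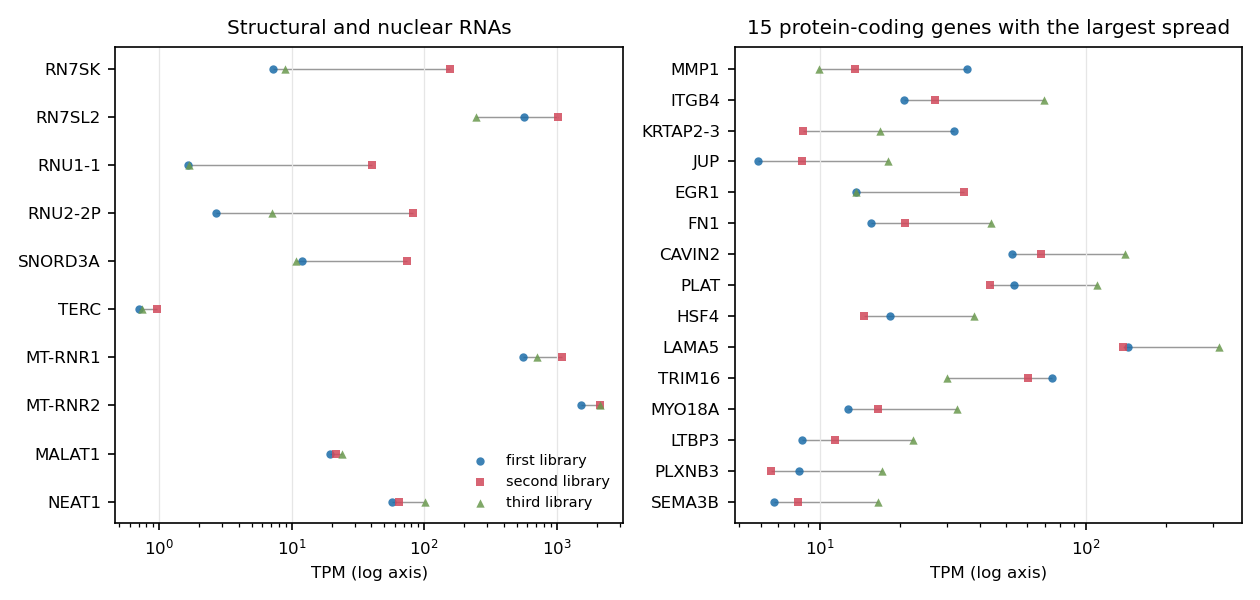
TPM on a log axis in the first (circle), the second (square) and the third (triangle) shCTL library for structural and nuclear RNAs (left) and for the 15 described protein-coding genes with the largest SD of log2(TPM + 1) among those with a mean of at least 10 TPM (right), with a line from the lowest to the highest library. RN7SK, RNU1-1, RNU2-2P and SNORD3A sat far to the right in the second library, and most protein-coding genes shown were highest in the third.

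Other protein-coding genes with a large spread were highest in the first or the second library. MMP1, the interstitial collagenase, measured 35.6, 13.5 and 9.97 TPM, and KRTAP2-3, a keratin-associated protein of hair, 32.03, 8.66 and 16.8 TPM, both highest in the first library. EGR1, an immediate early transcription factor, was highest in the second library with 13.7, 34.8 and 13.7 TPM. The 5 described genes with the smallest spread above a mean of 10 TPM were RFC1 (71.3, 71.3 and 71.4 TPM), the large subunit of the clamp loader of replication, MRPL33 (176, 176 and 176 TPM), a protein of the mitochondrial ribosome, TBL2 (35.5, 35.5 and 35.4 TPM), the Sp family factor SP3 (53.3, 53.2 and 53.4 TPM) and ZNF451 (24.5, 24.4 and 24.4 TPM). They were picked as the smallest among 9016 genes, so their spread is a description. It also depends on the scale. Median ratio scaling, another way to bring libraries to a common scale, gave factors of 0.987, 0.973 and 1.05. Values this close in TPM would therefore differ more after that scaling.

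The 3 genes listed as just inside the limit of 1 TPM were CALCRL (1, 1.25 and 1.77 TPM), DLX4 (1, 1.13 and 1.6 TPM) and ITIH5 (1, 1.28 and 1.01 TPM). Just outside were IL12RB1 (1.09, 1.13 and 0.99 TPM), PAPLN (0.99, 1.05 and 1.23 TPM) and PRDM7 (1.49, 0.99 and 1.04 TPM). These values overlap, so genes near the limit are not separated by it, and several genes shared the lowest values of 1 or 0.99 TPM.

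A gene listed at 0 need not be absent, since the depth is unknown and reads of similar genes are divided by an estimate. All 59 listed genes that every cell uses were among the described genes, the lowest being the TATA-binding protein gene TBP with 19.3, 19.3 and 18.3 TPM. Since these genes all lie well above the limit, they cannot show whether zeros or divided reads are right. In a bulk measurement, fewer cells with a transcript and less of it per cell cannot be told apart.

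Mitochondrial and translation transcripts led the control transcriptome. The 25 most abundant genes comprised 9 mitochondrial protein-coding genes, 7 cytosolic ribosomal protein genes and 3 pseudogenes. MT-CO3, a subunit of cytochrome c oxidase, was the most abundant with 9399, 10868 and 11589 TPM (10618 ± 1116 TPM, SD, n = 3, as for every ± below). MT-ATP8, a short subunit of ATP synthase whose reading frame overlaps that of MT-ATP6, followed with 8783, 9672 and 10885 TPM, and MT-CO1 with 7883, 8781 and 9295 TPM. The ranges of MT-CO3 and MT-ATP8 overlapped, as did those of MT-ATP8 and MT-CO1, while all values of MT-CO1 lay below those of MT-CO3. Further mitochondrial genes in the group were MT-ATP6 (8340.0 ± 1007 TPM), MT-CO2 (7001 ± 518 TPM) and MT-ND4 (6779.6 ± 846 TPM). MT-ND2 (6554 ± 576 TPM), MT-ND4L (6471 ± 721 TPM) and MT-ND3 (3286 ± 131 TPM) also belonged to it. These genes encode subunits of complexes I, IV and V. All 9 were lowest in the first library. The 13 mitochondrial protein-coding genes together took 6.72%, 7.56% and 8.16% of the TPM. These are counts of genes and not of separate mRNAs. The annotated positions of MT-ND4L and MT-ND4 overlap, as do those of MT-ATP8 and MT-ATP6.

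EEF1A1, the elongation factor that carries aminoacyl-tRNA to the ribosome, was the most abundant nuclear gene by mean with 8999.5, 7978 and 8173 TPM. GAPDH, a glycolytic dehydrogenase, measured 6146, 5602 and 5931 TPM, and RPLP0, a protein of the ribosomal stalk, 5152, 4549 and 4608 TPM. Neither range overlapped with that of EEF1A1, and the ranges of GAPDH and RPLP0 did not overlap with each other. RPS18 (4112 ± 166 TPM), the nucleolar chaperone NPM1 (3989 ± 319 TPM), RPS24 (3931 ± 234 TPM) and RPS3 (3432 ± 119.6 TPM) came next among the coding genes. RPL8 (3284 ± 97.6 TPM), RPL4 (3009.6 ± 113 TPM) and RPS29 (2996 ± 179 TPM) closed the ribosomal members of the top 25. The 86 cytosolic ribosomal protein genes, of which 84 were described, took 15.9%, 15.3% and 14.6% of the TPM.

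Further coding genes outside the ribosomal and mitochondrial groups followed. PPIA, the cyclophilin A gene, measured 3375, 3235 and 3248 TPM, the tubulin gene TUBA1B 3350.3, 3006 and 3147 TPM and ANXA2, a membrane-binding annexin, 3134, 2994 and 3254 TPM. The actin genes ACTB (2947 ± 56.8 TPM) and ACTG1 (2578 ± 68.1 TPM), the tubulin gene TUBB (2480.3 ± 68.4 TPM), the intermediate filament gene VIM (2565 ± 149 TPM) and the actin-monomer binding TMSB10 (2557 ± 136 TPM) belonged to the 15 most abundant coding genes outside the ribosomal and mitochondrial groups. HSPA8, the constitutive HSC70 chaperone, measured 2580.3, 3116 and 2480.3 TPM, and the poly(A)-binding protein gene PABPC1 2606, 2373 and 2251 TPM. The ferritin light chain FTL was the member of this group that differed most between libraries, with 3830.2, 2645 and 2362 TPM and the highest value in the first library. HNRNPA1, an RNA-binding splicing regulator, completed the group with 2372 ± 59.1 TPM.

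**Figure D2:**
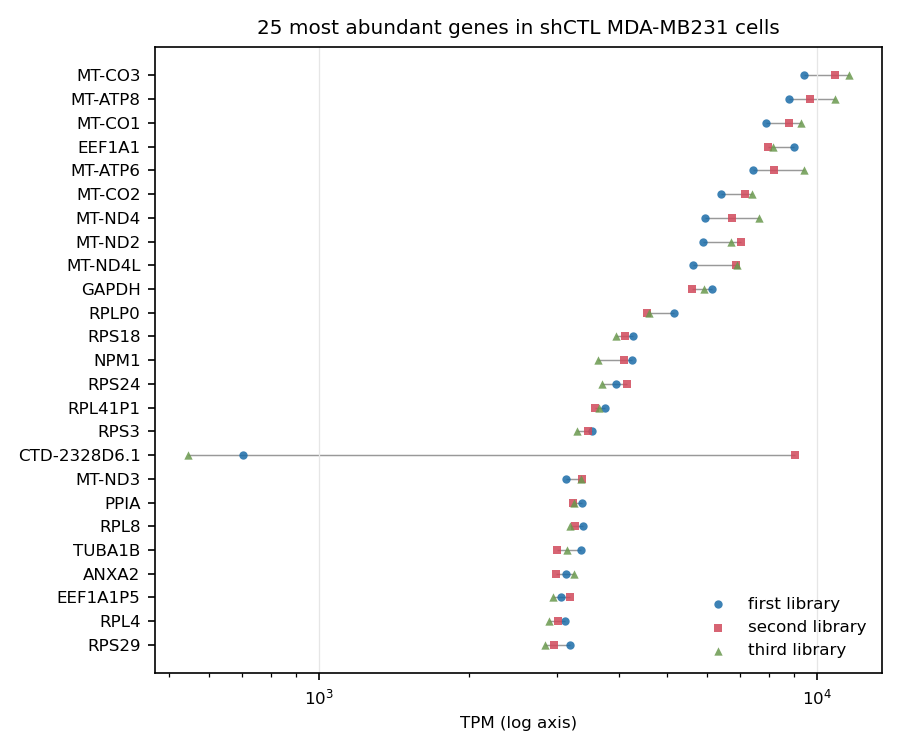
TPM on a log axis of the 25 most abundant genes by mean in the first (circle), the second (square) and the third (triangle) shCTL library, with a line from the lowest to the highest library. All genes but CTD-2328D6.1 lay within a narrow range, and that pseudogene was high in the second library alone.

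Reads shared with near-identical copies limited several of these values. The pseudogene RPL41P1, whose transcript is 81 bases long, was listed with 3745, 3581 and 3656 TPM, and EEF1A1P5, a copy of EEF1A1, with 3067, 3191 and 2953 TPM. Such copies share sequence with their parent gene, and the authors' software divides shared reads by an estimate, so these levels are uncertain. A pseudogene on chromosome X, CTD-2328D6.1, was listed with 705, 9014 and 546 TPM. Without the second library its mean was 626 TPM, and its place among the 25 most abundant genes rested on that library.

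The abundance was steeply graded. The 10 most abundant genes held 7.85 ± 0.571% of the TPM and the 50 most abundant 19.6 ± 0.874%. Between 387 and 460 genes were needed to reach 50% of the TPM of a library. Of the described genes, 6139 had a mean below 10 TPM, 7338 from 10 to below 100, 1526 from 100 to below 1000 and 152 at least 1000 TPM. The group of at least 1000 TPM held 35.7% of the TPM and the group below 10 TPM 2.55%. The median coefficient of variation between the libraries fell from 14% in the lowest group to 5.45% in the highest, and the share of protein-coding genes was 55.5% in the lowest and 92.9% in the next.

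Protein-coding genes made up most of the described genes. They numbered 11814 (77.95%), which is 61.01% of the 19364 protein-coding genes in the table, with a median level of 22.5 TPM. Long noncoding RNAs followed with 1497 of 12374 and a median of 2.71 TPM, and pseudogenes with 838 of 14170. Precursor loci of miRNAs contributed 170 genes, small nucleolar and Cajal body RNAs 77, and 480 described identifiers had no match in the annotation used for names. Precursors were more variable, with a median SD of log2(TPM + 1) of 0.342 for miRNA precursors against 0.107 for protein-coding genes.

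By mass the coding share was larger still. Protein-coding genes took 93.2%, 90.9% and 92.8% of the TPM, lowest in the second library. Pseudogenes took 2.93%, 4.43% and 2.84%, and miRNA precursor loci 0.192%, 0.625% and 0.208%, both highest in the second library. Single loci weighed heavily in both. The pseudogene CTD-2328D6.1 measured 705, 9014 and 546 TPM. The precursor locus AP000318.1 measured 313, 2699 and 264 TPM, and AC079949.1 88.5, 1993 and 65.98 TPM. The shares therefore do not show that each class rose as a whole in the second library. Without that library the mean shares were 92.99% for protein-coding genes, 2.89% for pseudogenes and 0.2001% for miRNA precursors. The leading lncRNAs were hosts of small nucleolar RNAs. SNHG29 measured 1150.5, 1214 and 1095 TPM, SNHG5 1178, 955 and 1134 TPM and GAS5 669, 571 and 598 TPM.

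**Figure D3:**
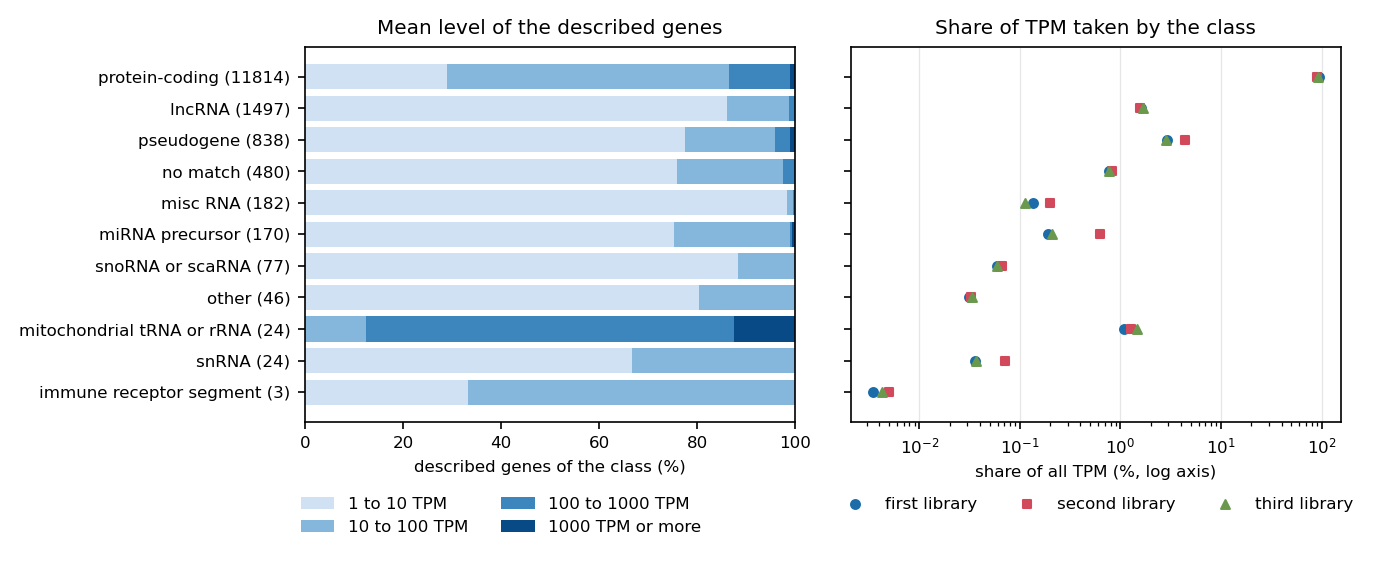
Left, share of the described genes of each class (number in brackets) by mean level in 4 ranges of TPM, and right, share of all TPM taken by the class in the first (circle), the second (square) and the third (triangle) library on a log axis. Protein-coding genes reached the higher ranges, and pseudogenes, miRNA precursors and snRNAs took more in the second library. Single loci such as CTD-2328D6.1 and AP000318.1 weighed heavily in the shares of pseudogenes and miRNA precursors.

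Of the receptors that define breast cancer subtypes, those for estrogen (alpha) and progesterone were below the limit, and EGFR and ERBB2 were above it. ESR1, the estrogen receptor alpha gene, measured 0.14, 0.10 and 0.11 TPM and PGR, the progesterone receptor gene, 0, 0.01 and 0.01 TPM. ERBB2, which encodes HER2, measured 26.6, 29.4 and 32.2 TPM, and EGFR, its relative that is often high in basal-like tumors, 85.2, 78.01 and 89.4 TPM. ESR2, the estrogen receptor beta gene, was near the limit with 1.2, 1.43 and 1.25 TPM. The ranges of these genes did not overlap between neighbours in the order EGFR, ERBB2, ESR2, ESR1 and PGR.

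Luminal keratins were high while ESR1 and PGR were off, a word used here for genes below 1 TPM in all 3 libraries. Of 18 matched luminal genes, 14 were described, beside 61.01% of all protein-coding genes. Every such count below is to be set beside that share. Counts of genes listed at 0 are to be set beside 2213 of the 19364 protein-coding genes (11.4%). KRT8 measured 505, 465 and 595 TPM and its filament partner KRT18 488, 502 and 502 TPM, with overlapping ranges. KRT7 (213, 259 and 304 TPM) and KRT19 (95.8, 84.8 and 128 TPM) followed, both highest in the third library. EPCAM, an epithelial surface adhesion molecule, was lower with 15.1, 14.2 and 14.2 TPM, and the luminal factors GATA3 (3.83, 4.69 and 4.69 TPM) and FOXA1 (3.72, 4.74 and 4.21 TPM) were close to each other with overlapping ranges. KIT, a marker of luminal progenitors, measured 0, 0.01 and 0.01 TPM.

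Of the 22 genes of epithelial junctions and identity, 11 were described (50%, beside 61.01% of all protein-coding genes). The desmosome gene DSG2 led with 66.2, 64.02 and 61.2 TPM, DSP, another desmosome gene, measured 15.4, 17.01 and 15.3 TPM, and the tight junction genes CLDN4 (18.4, 22.9 and 26.8 TPM) and CLDN7 (6.64, 6.67 and 14.7 TPM) were expressed. The third library was highest for CLDN7. PKP3, a plakophilin of desmosomes, had 14.5 ± 2.58 TPM. E-cadherin (CDH1) straddled the limit with 1.01, 0.80 and 1.22 TPM. The splicing regulator ESRP1 measured 0.51, 2.05 and 0.46 TPM, highest in the second library, and the epithelial transcription factors GRHL2 (0.40, 0.38 and 0.32 TPM) and OVOL1 (0, 0.01 and 0 TPM) were off.

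Several basal keratins were off. Of 18 basal genes 9 were described (50%, beside 61.01% of all protein-coding genes). KRT5, KRT6A and KRT6B were listed at 0 in all 3 libraries. KRT14 measured 0.02, 0.08 and 0.17 TPM, KRT17 0.10, 0.06 and 0.13 TPM, KRT15, a keratin of basal layers that the luminal list held, 6.8, 4.03 and 4.42 TPM and TP63, which encodes p63, 0.72, 0.74 and 0.70 TPM. Basal adhesion and contractile genes were expressed, with ITGA6, integrin alpha 6, at 98.7, 85.8 and 105 TPM, its partner ITGB4 as given above and MYLK, the myosin light chain kinase, at 10.4, 13.3 and 16.9 TPM. Over all 55 keratin genes, 8 were described and 25 were listed at 0 in all libraries, beside 11.4% of all protein-coding genes listed at 0.

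Mesenchymal genes formed the largest described share of the lineage lists, 22 of 28 (78.6%), close to the 77.8% of the luminal list. VIM, the vimentin gene, measured 2609, 2688 and 2399 TPM and LGALS1, a galectin, 1462, 1248 and 1584 TPM. CD44, the hyaluronan receptor, reached 513, 428 and 398 TPM, CAV1, the scaffold of caveolae, 382, 429 and 497 TPM and the receptor kinase AXL 387, 403 and 398 TPM, with ranges that overlapped between neighbours. Of the transcription factors that repress E-cadherin, ZEB1 measured 25.8, 25.3 and 23.1 TPM, ZEB2 8.78, 8.87 and 9.38 TPM, SNAI2 7.28, 7.62 and 6.26 TPM and SNAI1 3.89, 5.13 and 3.96 TPM. Other mesenchymal genes were off, namely N-cadherin (CDH2, 0.20, 0.14 and 0.23 TPM), THY1 (0.06, 0.04 and 0.06 TPM) and the factors TWIST1 and TWIST2, which were listed at 0 in all libraries.

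Markers of other cell types were mostly below the limit. Of 18 immune genes 2 were described, the lysosomal gene CD68 (203, 169.8 and 179.8 TPM), which many cell types express, and CD8A (3.64, 3.72 and 3.83 TPM). The pan-leukocyte gene PTPRC measured 0.27, 0.08 and 0.16 TPM and the T cell gene CD3E 0.03, 0 and 0 TPM. The list held no immune receptor segments, of which 3 of 370 were described, all of the T cell receptor beta locus. TRBC2 measured 19.7, 18.4 and 18.04 TPM, TRBJ2-1 11.7, 25.5 and 17.9 TPM and TRBJ2-3 2.03, 2.21 and 2.65 TPM. The summed level of the list was 208, 175 and 185 TPM, nearly all of it CD68, and the highest mean after CD68 and CD8A was that of CD14 (0.377 ± 0.1201 TPM), followed by CSF1R (0.357 ± 0.0231 TPM). Endothelial genes gave 2 of 9, ROBO4 (21.2, 15.3 and 25.1 TPM), a guidance receptor of vessels, and TIE1 (1.58, 1.07 and 1.18 TPM), while CDH5 (0.32, 0.52 and 1.47 TPM), FLT1 (0.71, 0.61 and 0.76 TPM) and VWF (0.10, 0.03 and 0.19 TPM) lay below the limit in at least 2 libraries. Of the fibroblast and adipocyte genes, COL1A1 (7.63, 7.3 and 13.9 TPM) and PDGFRB (1.82, 1.93 and 3.1 TPM) were described among 13, with DCN at 1.24, 1.25 and 0.76 TPM and COL3A1 at 0.04, 0.01 and 0.07 TPM. Melanocyte genes gave 2 of 7, MITF (10.4, 14.1 and 13.1 TPM) and PMEL (1.42, 1.63 and 2.87 TPM), with TYRP1 at 0.52, 1.26 and 0.52 TPM, MLANA at 0.60, 0.55 and 0.54 TPM and TYR at 0.02, 0.04 and 0.02 TPM. Among 18 genes of other tissues 4 were described, ENO2 (59.6, 76.4 and 80.3 TPM), NKX2-1 (6.4, 7.77 and 11.5 TPM), a factor of lung and thyroid, AFP (4.49, 2.89 and 2.41 TPM) and GFAP (1.96, 2.12 and 2.4 TPM).

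**Figure D4:**
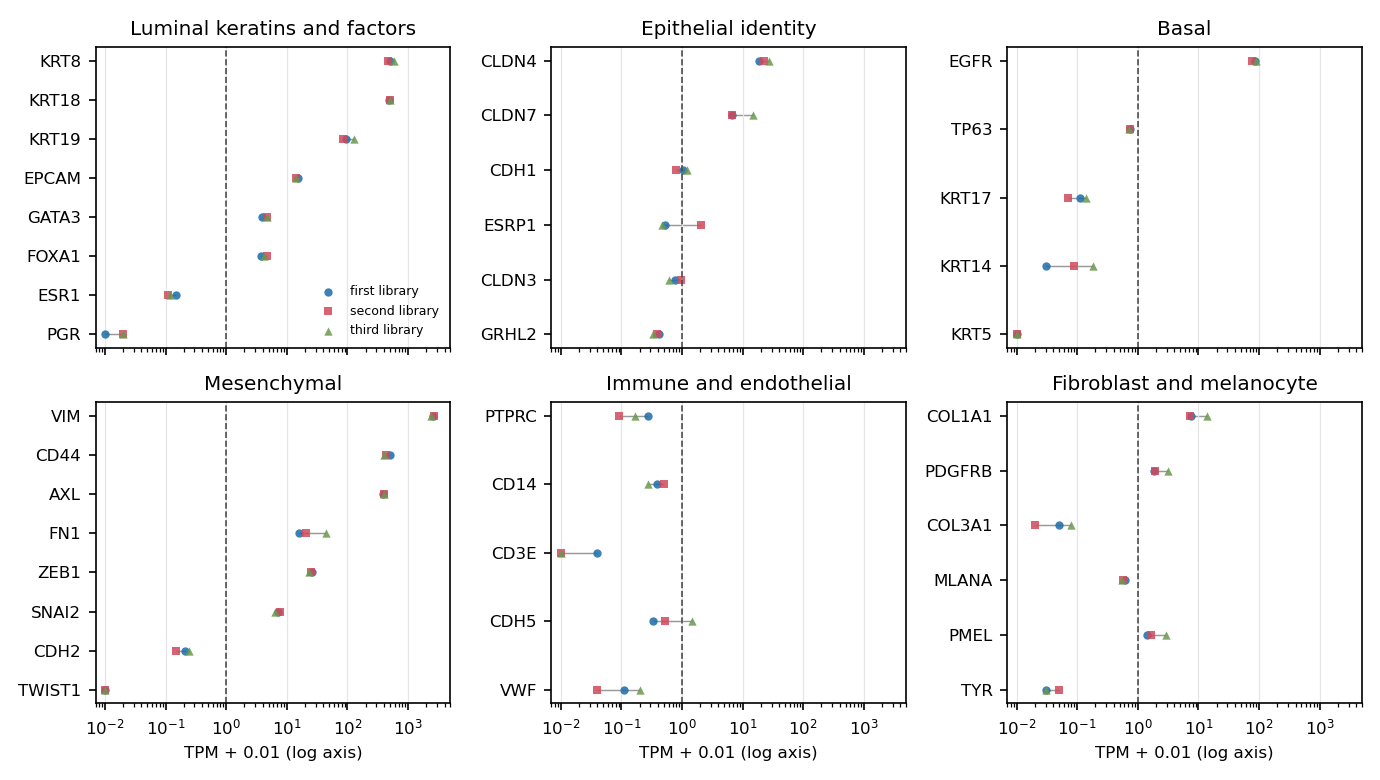
TPM + 0.01 on a log axis for defining genes of 6 groups of cell type markers in the first (circle), the second (square) and the third (triangle) shCTL library, with the dashed line at the limit of 1 TPM. KRT8, KRT18 and VIM were high, ESR1, PGR, KRT5, KRT14 and TWIST1 lay at the left edge or near it, and the immune markers were below the limit.

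Receptor tyrosine kinases, the receptors through which growth factors and Wnt5a-type ligands signal, were described for 27 of 58 genes. That is 46.6%, beside 61.01% of all protein-coding genes. AXL, the receptor of GAS6, led with 387, 403 and 398 TPM, and EPHA2, an ephrin receptor, followed with 142, 135 and 156 TPM before EGFR. The range of AXL, EPHA2 and EGFR did not overlap with the next in order. PTK7 (54.4, 61.7 and 69.02 TPM) and RYK (60.1, 59.5 and 55.1 TPM), co-receptors of Wnt signaling, had overlapping ranges, as had RYK and MET (50.2, 56.99 and 53.05 TPM), the hepatocyte growth factor receptor. FGFR1 (46.5, 45.9 and 48.4 TPM) and EPHB4 (26.6, 31.6 and 35.9 TPM) followed. ROR1, the receptor the series was designed around, measured 15.4, 13.5 and 20.6 TPM and stood at order 11 of 58 by mean, with ranges that overlapped those of TYRO3 above it and EPHB2 below it. Its relative ROR2, the other Wnt5a receptor of the family, measured 0, 0.01 and 0.01 TPM. The remaining genes below the limit included ERBB4 (0.01, 0.01 and 0.05 TPM), KDR (0.41, 0.46 and 0.42 TPM), PDGFRA (0.41, 0.22 and 0.23 TPM) and NTRK2, which was listed at 0.

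**Figure D5:**
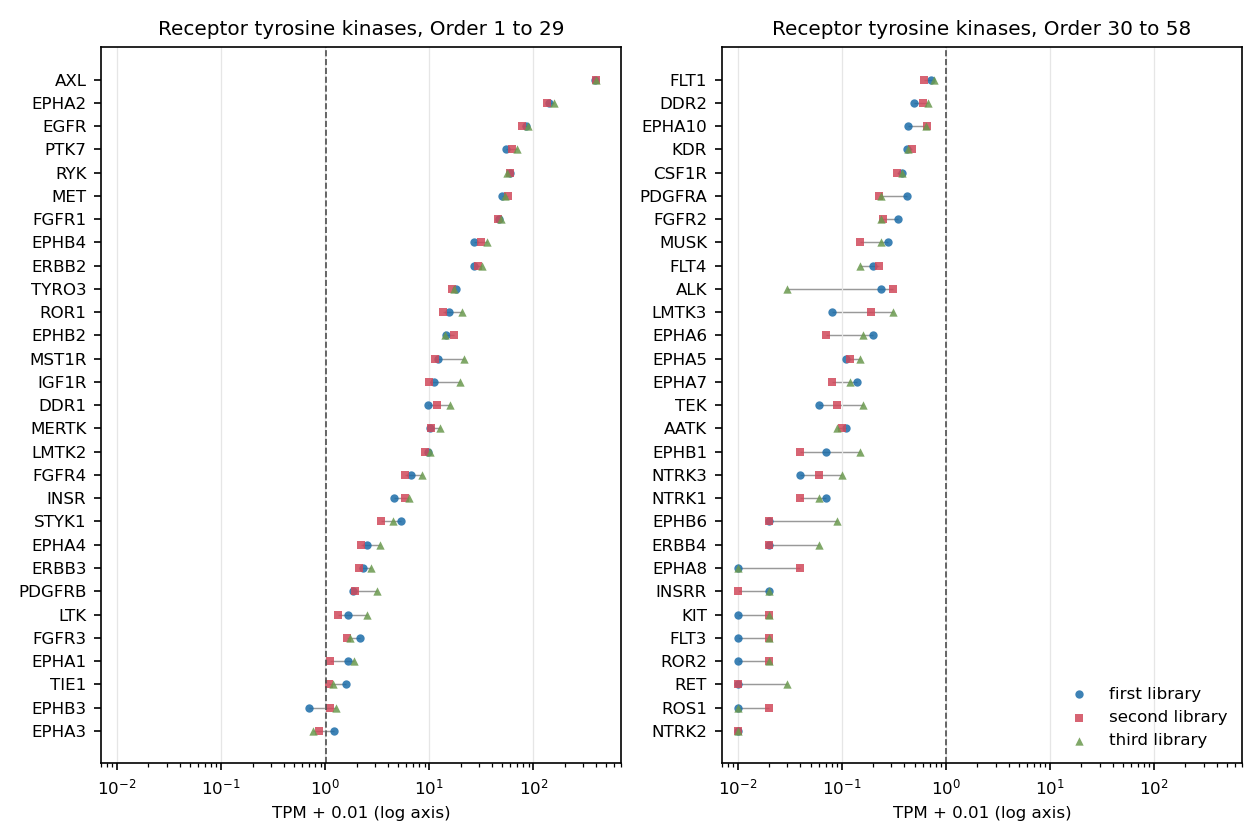
TPM + 0.01 on a log axis of the 58 matched receptor tyrosine kinase genes in order of their mean in the first (circle), the second (square) and the third (triangle) shCTL library, with the dashed line at the limit of 1 TPM. AXL stood clear of the others, ROR1 lay at order 11, and ROR2 was at or near 0.

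Nuclear receptors, which are ligand-gated transcription factors, were described for 27 of 47 matched genes (57.4%, near the 61.01% of all protein-coding genes). NR2F2 (COUP-TFII) led with 85.7, 74.2 and 72.3 TPM, followed by PPARG, the adipogenic receptor, with 56, 56.2 and 70.5 TPM. NR1H2, an oxysterol receptor, measured 47.9, 42.1 and 52.3 TPM and its dimer partner RXRB 36.8, 39.04 and 44.5 TPM, with overlapping ranges. The glucocorticoid receptor NR3C1 had 37.9 ± 0.891 TPM. The thyroid receptor THRB (0.88, 0.40 and 0.85 TPM) was below the limit, and NR0B1 and RXRG were listed at 0.

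Receptor families for secreted ligands were described in shares on both sides of the 61.01% of all protein-coding genes. The cytokine receptors (62.2%) lay near it and the TNF receptors (51.7%) below it, and no difference from it was tested. Of 14 TGF-beta family receptors 11 were described, led by TGFBR2 (89.4, 92.1 and 86.9 TPM) and ENG, the endoglin gene (76.8, 69.97 and 86.96 TPM), with overlapping ranges, and by BMPR1A (20.3 ± 1.23 TPM) and ACVR1 (13.8 ± 0.961 TPM). Of 29 TNF receptor genes 15 were described. TNFRSF12A, the Fn14 receptor of TWEAK, measured 183, 174 and 147 TPM, TNFRSF1A, the main TNF receptor, 135, 132 and 172 TPM, and LTBR 110.4 ± 5.37 TPM and the TRAIL receptor TNFRSF10B 78.8 ± 2.21 TPM followed. Cytokine receptors gave 23 of 37, led by IL6ST (gp130), the shared chain of the interleukin 6 family, with 56.6, 62.1 and 58.9 TPM, IFNGR2 (39.02 ± 0.939 TPM), IFNAR1 (29.1 ± 1.92 TPM) and OSMR (28.5 ± 2.04 TPM). Frizzled receptors gave 7 of 10, with FZD6 at 48.5, 51.8 and 55.5 TPM, FZD2 at 20.3 ± 1.84 TPM, FZD7 at 14 ± 0.626 TPM and FZD1 at 4.79 ± 0.1801 TPM. Of 19 Wnt ligand genes 6 were described, WNT5B first with 11.5, 10.9 and 11.6 TPM and WNT5A next with 4.8, 4.63 and 5.44 TPM, then WNT7B (4.25 ± 0.7202 TPM) and WNT3 (4.15 ± 0.179 TPM).

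Chemokine receptors were mostly below the limit, with 1 of 22 described, beside 61.01% of all protein-coding genes. CCR10 measured 1.85, 1.79 and 3.29 TPM, and CXCR4, the receptor of CXCL12, 0, 0 and 0.02 TPM. ACKR2 (0.81, 0.81 and 0.83 TPM), CCR4 (0.76, 0.77 and 0.73 TPM) and CXCR6 (0.83, 0.62 and 0.61 TPM) were next below the limit. Receptors for lipids, nucleotides and proteases gave 13 of 39, among them F2RL1, the protease-activated receptor PAR2, with 109, 125 and 131 TPM, the adenosine receptor ADORA2B (35.8 ± 2.396 TPM) and the lysophosphatidic acid receptor LPAR1 (19.2 ± 2.03 TPM). Integrins gave 13 of 26. ITGB1, the beta chain of most collagen, laminin and fibronectin receptors, measured 600.1, 631 and 613 TPM, ITGA3, a laminin-binding chain, 275, 306 and 357 TPM, and ITGB5 79.7, 83.3 and 135 TPM, highest in the third library, before ITGA6 whose range overlapped with that of ITGB5.

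Transcription factors of body position and lineage were mostly off. Of 39 HOX genes 8 were described, 4 of the HOXB, 2 of the HOXC and 2 of the HOXD cluster, and all 11 HOXA genes stayed at or below 0.19 TPM in every library. HOXB9 led with 12.5, 12.3 and 11.7 TPM, followed by HOXB3 (7.67, 6.24 and 9.74 TPM), HOXD4 (4.63 ± 0.642 TPM) and HOXD3 (4.27 ± 0.194 TPM), the last 2 with overlapping ranges. Of 37 SOX, PAX, GATA and RUNX genes 12 were described and 13 were listed at 0, beside 11.4% of all protein-coding genes listed at 0. RUNX1 measured 31.7, 33.96 and 32.1 TPM and SOX9 28.8, 31.1 and 35.1 TPM, with overlapping ranges, and SOX13 (17.4 ± 4.18 TPM) and SOX12 (11.3 ± 1.65 TPM) were lower.

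All 21 listed tumour suppressor and oncogenes and all 20 proliferation genes were described. The list of tumour suppressors and oncogenes leaves out CDKN2A and CDKN2B, which were listed at 0 and are given with their region of chromosome 9. CDK4, a kinase that drives entry into S phase, measured 429, 414 and 390.2 TPM and its partner CCND1 217, 216 and 244 TPM, and AKT1 (114 ± 7.51 TPM) and NRAS (109 ± 2.46 TPM) followed. TYMS, which makes thymidylate for DNA synthesis, led the proliferation genes with 450.4, 476 and 443 TPM, before the ribonucleotide reductase gene RRM2 (422, 397 and 382 TPM), CCNB1 (349 ± 11.03 TPM) and TOP2A (347 ± 8.89 TPM).

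In the table, 18 runs of at least 20 neighbouring protein-coding genes (chromosome Y left out) held no described gene. The longest, from OR4B1 to APLNR on chromosome 11 (GRCh37, chr11:48238362-57004724), held 64 genes, 56 of them olfactory receptors, and 59 were listed at 0. Over all protein-coding genes, 11.4% were listed at 0. Olfactory receptors, the odorant receptors of the nose, were described in 0 of 381 genes, beta-defensins in 0 of 40 and keratin-associated proteins in 1 of 92. At the other end, mitochondrial ribosomal proteins were described in 76 of 76, proteasome subunits in 36 of 38 and zinc finger genes in 414 of 500. The clustered protocadherins gave 5 of 51 and bitter taste receptors 1 of 24. Solute carriers gave 211 of 376 (56.1%, near the 61.01% of all protein-coding genes). Replication-dependent histones, whose mRNAs end without a poly(A) tail, gave 14 of 33, with H2BC12 at 66.1, 51.7 and 67.4 TPM and H1-2 at 34.8, 20.5 and 35.3 TPM.

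Another run lay on the short arm of chromosome 9, from HACD4 to IZUMO3 (GRCh37, chr9:20999508-24545944), with 24 genes of which 20 were listed at 0. CDKN2A, which encodes the cell cycle inhibitor p16, CDKN2B, which encodes p15, and DMRTA1 were listed at 0 in all 3 libraries, as were the interferon genes IFNB1 and IFNA1. MTAP, a methionine salvage enzyme gene next to CDKN2A, measured 0.63, 0.43 and 0.56 TPM, ELAVL2 0.26, 0.23 and 0.12 TPM and KLHL9 0.05, 0.04 and 0.03 TPM. Genes on both sides were on, with MLLT3 at 9.51, 9.88 and 11.5 TPM and FOCAD at 4.16, 3.94 and 5.89 TPM before the run and TUSC1 at 4.97, 4.91 and 4.16 TPM after it. By chromosome, the share of protein-coding genes that were described ran from 47.5% on X and 52.02% on 11 to 67.2% on 14.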

How the data were processed

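Cells were MDA-MB231 with the control shRNA, measured by RNA-Seq in 3 libraries. According to the submitters' processing notes and the methods, base calls were made with CASAVA 1.8.2, reads were checked with FastQC 0.10.0 and mapped to GRCh37 with STAR, and gene abundances were estimated with RSEM 1.2.5, which divides reads that fit several genes by an estimate. The authors deposited TPM per gene, with 2 decimals, although the table is called one of expected counts. TPM corrects for gene length and scales each library to the same total, so a transcript that takes a larger share lowers all others, and neither depth nor counting error can be recovered. The 3 columns of the Ror1 shRNA were not used here.

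The 3 control columns were read with Python 3.11.15, pandas 2.3.3 and NumPy 2.4.6, and figures were drawn with Matplotlib 3.10.9. Symbols, classes and GRCh37 positions came from GENCODE 44 in its GRCh37 version, which is newer than the annotation used for mapping, and 55022 of 57445 identifiers matched. Genes with at least 1 TPM in all 3 libraries were described. The spread was the SD of log2(TPM + 1) over the libraries. A check on simulated data used log2(TPM) without the added 1, pooled over genes well above the limit. It did not cover the median SD reported here. Start windows (250 bases before and 50 after) came from RefSeq, GRCh38.p14. No groups were compared and no test was run, so no p-value is given.

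The members, the 29 gene lists and the 12 families were chosen with earlier results of these data known. Named genes followed a rule: the 25 most abundant genes, the 15 most abundant coding genes outside the ribosomal and mitochondrial groups, all subtype receptors, the 4 highest of every other list with members whose presence or absence defines a cell type, the 5 largest and 5 smallest spreads at a mean of at least 10 TPM, the 3 genes on either side of the limit, and ROR1 and ROR2. A few genes that this rule names are not reported here. Other genes were named after their values were seen. Alternatives were other limits and ways to count, summing by symbol, rescaling, another pseudocount, median ratio scaling and leaving out each library.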

Additional observations from a re-analysis of the deposited data

How the results depend on the processing

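The number of described genes stayed within 1.5-fold of 15155 under every alternative tried, from 10588 at a limit of 5 TPM to 17670 at 0.5 TPM, and from 15389 to 15549 when a library was left out. The protein-coding share of 78.0% depended on the limit. It was 71.4% at 0.5 TPM, 91.1% at 5 TPM, 74.5% with a mean of at least 1 TPM, and from 76.7% to 77.1% without a library. The 50 most abundant genes held 19.6% of the TPM, 17.2% after rescaling to nuclear protein-coding genes, and from 19.5% to 19.96% without a library. Protein-coding genes held 92.3% of the TPM, 94.9% among genes with a transcript of at least 200 bases, and from 91.9% to 93.0% without a library. The median SD of log2(TPM + 1) was 0.117 and was 0.130 with a pseudocount of 0.1, 0.0973 without a limit and from 0.074 without the third library to 0.110 without the first, and the cause was not tested. For the levels of named genes, rescaling raised 136 levels by 1.17- to 1.19-fold by its construction. Median ratio scaling moved 5 of 153 beyond 1 SD. These were RFC1, MRPL33, TBL2, SP3 and ZNF451, the genes named for the smallest spread. Leaving out the second library lowered the mean of AC079949.1 to 0.108-fold, the largest fall. No paired analysis was possible because no test was run and the library columns are unnumbered. Depth is unknown, so low values and zeros have no counting interval.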

Other observations

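The glycolysis list, of which GAPDH is given above, and the list of cytokines and chemokines gave further values. All 17 listed glycolysis genes were described, with ENO1 at 2318, 2380.3 and 2351 TPM, the pyruvate kinase gene PKM at 2257, 2076 and 2238 TPM and the lactate dehydrogenase gene LDHA at 1521, 1789.9 and 1638 TPM after GAPDH. ALDOC, the brain-type aldolase, was the lowest with 20.7, 31.03 and 46.3 TPM. Of 23 matched cytokine and chemokine genes 12 were described. LIF, a cytokine of the interleukin 6 family, led with 37.99, 36.4 and 38.9 TPM, and its receptor chain LIFR measured 8.18, 8.9 and 10.1 TPM. CSF1, the macrophage colony-stimulating factor, measured 23.1, 27.2 and 26.2 TPM, IL11 21.4, 16.1 and 19.8 TPM and the neutrophil chemokine CXCL8 21.97, 19.98 and 10.6 TPM, the last lowest in the third library. TNF measured 0.02, 0.03 and 0.08 TPM, and CXCL6 and TSLP were listed at 0.

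Cancer-testis antigens, genes otherwise expressed in the germ line, gave 5 of 23 matched. MAGEC2 measured 115, 99.6 and 96.8 TPM, MAGEA6 65.5, 61.6 and 59.9 TPM, MAGEC1 36.1, 31.4 and 33.1 TPM and XAGE1A 26.4, 21.8 and 25.03 TPM, while PRAME and MAGEA1 were listed at 0. MAGEA3 measured 1.64, 1.21 and 1.25 TPM. MAGEA3 and MAGEA6 are near-identical copies, so the division of reads between them is uncertain.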
